A study of Homo sapiens with 5 samples.

Results

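The C/D box small nucleolar RNAs (snoRNAs) described here were all rows of the deposited expression tables whose gene symbol begins with SNORD, and they numbered 74 of 2694 listed genes. TC28a2, an immortalised human chondrocyte cell line that the labels describe as normal chondrocytes from costal cartilage, was kept in growth medium (GM, 2 libraries) or in hypertrophic medium (HM, 3 libraries), and total RNA was sequenced on day 5. Growth medium was high-glucose DMEM with 10% fetal bovine serum. Hypertrophic medium, which is meant to drive chondrocytes towards the enlarged state that precedes bone formation, held 1% serum, 1% insulin-transferrin-selenium supplement, BMP-2 at 100 ng/ml, GDF-5 at 10 ng/ml, the thyroid hormone T3 at 1 µM, ascorbic acid at 50 µg/ml, dexamethasone at 10 nM and β-glycerophosphate at 10 mM. All 5 libraries came from this single line, and the media differed in serum as well as in every added factor, so the part of any single component cannot be told apart. The study describes its replicates in general as biological, but the labels do not say which libraries came from which cultures, and the p-values measure the spread between these libraries.

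C/D box snoRNAs are short nuclear RNAs named after a pair of sequence boxes, box C near the 5′ end and box D near the 3′ end, which bind the proteins SNU13, NOP56, NOP58 and the methyltransferase fibrillarin. Most of them base-pair with ribosomal RNA just upstream of box D, or of an internal copy of it, and direct 2′-O-methylation of the paired RNA. A few take part in cleavage of the ribosomal RNA precursor, among them U3, encoded by SNORD3A, the SNORD14 RNAs (U14) and SNORD22 (U22). Most human C/D box snoRNAs are not transcribed on their own but are cut out of introns of a host gene, often a ribosomal protein gene or a noncoding small nucleolar RNA host gene (SNHG).

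The values are log2-transformed, library-normalised expression values as the authors deposited them, and they do not show how many reads each rests on. The listed genes appear to be those that the authors' own test called on the same 5 libraries. The fold change that the study required for its calls was larger than most differences in the deposited values. Of the 2694 listed genes, 57 differed by more than 2 in either direction and 510 by more than 1. The log2 transformation is not described further, so the deposited scale may be compressed, and differences on it are not read as fold changes of the RNA. A listed C/D box snoRNA was therefore nearly bound to differ between the media, and the listed genes hold no background of unchanged genes. In RefSeq, 357 genes have symbols beginning with SNORD. Of the 4 large families SNORD113 to SNORD116, encoded in imprinted loci, none of the 118 RefSeq members was listed. The 74 listed members carried 62 different numbers after SNORD, and 73 lay in 34 RefSeq host genes. The remaining one was SNORD3A.

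Sequences were read for members that the GRCh37 version of GENCODE 44 (GRCh37 is the assembly also called hg19) places on the host's strand inside the host that RefSeq names. This located 44 members, of which 14 overlapped no exon of the host and 30 overlapped an exon of at least 1 annotated host transcript. SNORD3A was located too, without a host, at chr17:19091329-19092027, but that entry spans 699 bases against 217 in RefSeq, so its sequence is not shown. For 41 members the length was within 10 bases of that in RefSeq. The motif TGATGN, a form of box C with any last base, was found in the first 25 bases of 39 of the 41, and the letters CTGA of box D in the last 22 bases of 39, both read on the RNA's own strand only. Both stood in 38 of 41, or 92.7%, against 1 of 236 (0.4%) GENCODE loci of SNORA genes, the other main class of snoRNA, which carries H and ACA boxes. The following 6 members are shown because they stand at the ends of the range of differences, or belong to a set of related copies in one host, with boxes C and D in capitals. SNORD101 (chr6:133136446-133136518 on the plus strand, inside RPS12), SNORD83A (chr22:39711218-39711312 on the minus strand, inside RPL3) and SNORD14C (chr11:122930043-122930130 on the minus strand, inside HSPA8) were among the members that fell most. SNORD1B (chr17:74557191-74557274 on the plus strand, inside SNHG16) and SNORD21 (chr1:93302846-93302940 on the plus strand, inside RPL5) were among those that fell least. SNORD14D (chr11:122929617-122929703 on the minus strand, inside HSPA8) is 1 of the 3 members in which a box was not found.
SNORD101: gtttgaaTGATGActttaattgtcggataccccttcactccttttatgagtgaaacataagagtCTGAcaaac
SNORD83A: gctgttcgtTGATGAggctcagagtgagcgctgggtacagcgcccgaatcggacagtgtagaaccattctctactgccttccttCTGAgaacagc
SNORD14C: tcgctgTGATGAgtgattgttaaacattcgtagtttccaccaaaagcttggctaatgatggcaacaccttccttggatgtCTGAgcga
SNORD14D: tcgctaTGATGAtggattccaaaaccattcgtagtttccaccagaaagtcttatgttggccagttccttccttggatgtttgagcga
SNORD1B: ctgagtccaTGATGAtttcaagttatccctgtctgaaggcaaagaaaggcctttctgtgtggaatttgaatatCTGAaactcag
SNORD21: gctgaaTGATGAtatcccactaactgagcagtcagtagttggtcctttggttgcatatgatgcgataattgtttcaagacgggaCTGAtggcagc
SNORD101, SNORD83A and SNORD1B overlapped no exon of their hosts. SNORD14C and SNORD14D each overlapped an exon of 2 of 24 HSPA8 transcripts, and SNORD21 an exon of 1 of 11 RPL5 transcripts. SNORD14D lacks CTGA at its 3′ end, SNORD99 lacks TGATGN, and SNORD97 lacks both within these windows.

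The stretch next to box D is where a C/D box snoRNA can pair with ribosomal RNA. Perfect Watson-Crick matches of at least 10 bases to the 18S, 5.8S or 28S ribosomal RNA of the GRCh37 sequence, ending at most 1 base before a CTGA at the 3′ end or inside the RNA, were found in 29 of the 41 members. They fell on 28S in 17, on 18S in 11 and on 5.8S in 1, and 12 members had none by this rule. Such a match, of which only the longest per member was kept, describes the letters and is not a mapped methylation site. How often such matches arise in other sequences was not counted. The next 6 are shown for their guide stretches, given in capitals: the longest match, the single match to 5.8S, copies that share a stretch, and a GAS5 snoRNA.
SNORD20: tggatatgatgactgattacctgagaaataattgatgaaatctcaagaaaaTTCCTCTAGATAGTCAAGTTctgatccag
SNORD96A: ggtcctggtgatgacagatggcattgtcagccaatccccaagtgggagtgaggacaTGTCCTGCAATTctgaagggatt
SNORD45A: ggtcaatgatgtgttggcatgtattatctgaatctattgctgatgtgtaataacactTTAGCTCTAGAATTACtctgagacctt
SNORD45C: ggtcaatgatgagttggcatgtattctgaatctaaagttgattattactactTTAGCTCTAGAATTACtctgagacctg
SNORD14E: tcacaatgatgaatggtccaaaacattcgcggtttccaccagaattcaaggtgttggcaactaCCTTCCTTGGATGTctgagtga
SNORD78: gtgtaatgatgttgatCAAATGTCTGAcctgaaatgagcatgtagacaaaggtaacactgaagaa
The stretch of SNORD20 (chr2:232321155-232321234 on the minus strand, inside NCL) paired over 20 bases with 18S. SNORD96A (chr5:180668814-180668892 on the minus strand, inside RACK1) paired over 12 bases with 5.8S. SNORD45A (chr1:76253574-76253657 on the plus strand) and SNORD45C (chr1:76252757-76252835 on the plus strand), both inside RABGGTB, carry one and the same 16-base stretch for 18S and were identical at 84.5% of aligned positions. SNORD14E (chr11:122928785-122928869 on the minus strand) shares with SNORD14C the 14-base stretch CCTTCCTTGGATGT, which pairs with 18S. SNORD78 (chr1:173834760-173834824 on the minus strand) lies inside GAS5 and pairs over 11 bases with 28S next to an internal CTGA.

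All 74 C/D box snoRNAs had a lower mean in hypertrophic than in growth medium, and for each of them every hypertrophic medium library lay below both growth medium libraries. The log2 differences, hypertrophic minus growth medium, ran from -0.90 (SNORD79) to -0.29 (SNORD1A), with a median of -0.58. By limma with Benjamini-Hochberg adjustment over all listed genes, all 74 fell at an adjusted p under 0.05, from 0.000768 (SNORD15A) to 0.0154 (SNORD45C), and 61 of them also at 0.01, beside 81.7% of all listed genes at 0.01. No difference went beyond -1, which 190 of the 2694 listed genes did. In such bulk samples, fewer cells that make an RNA and less of it per cell cannot be told apart. Against this stands the background that the list itself sets: 99.0% of the 2694 genes passed the same threshold in either direction, 36.5% passed it as lower, 36.5% had hypertrophic medium libraries wholly below those in growth medium, and 36.6% had a lower mean. Passing the test was thus near the background of the list, whereas for the shared direction 74 of 74 stand beside 36.6%. The median difference of all listed genes was 0.56, and that of the 913 other genes with a lower mean was -0.70. For a single member the exact permutation test over the 5 libraries cannot give a p below 0.1, the value reached by 67 members, and the other 7 gave 0.2.

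**Figure D1:**
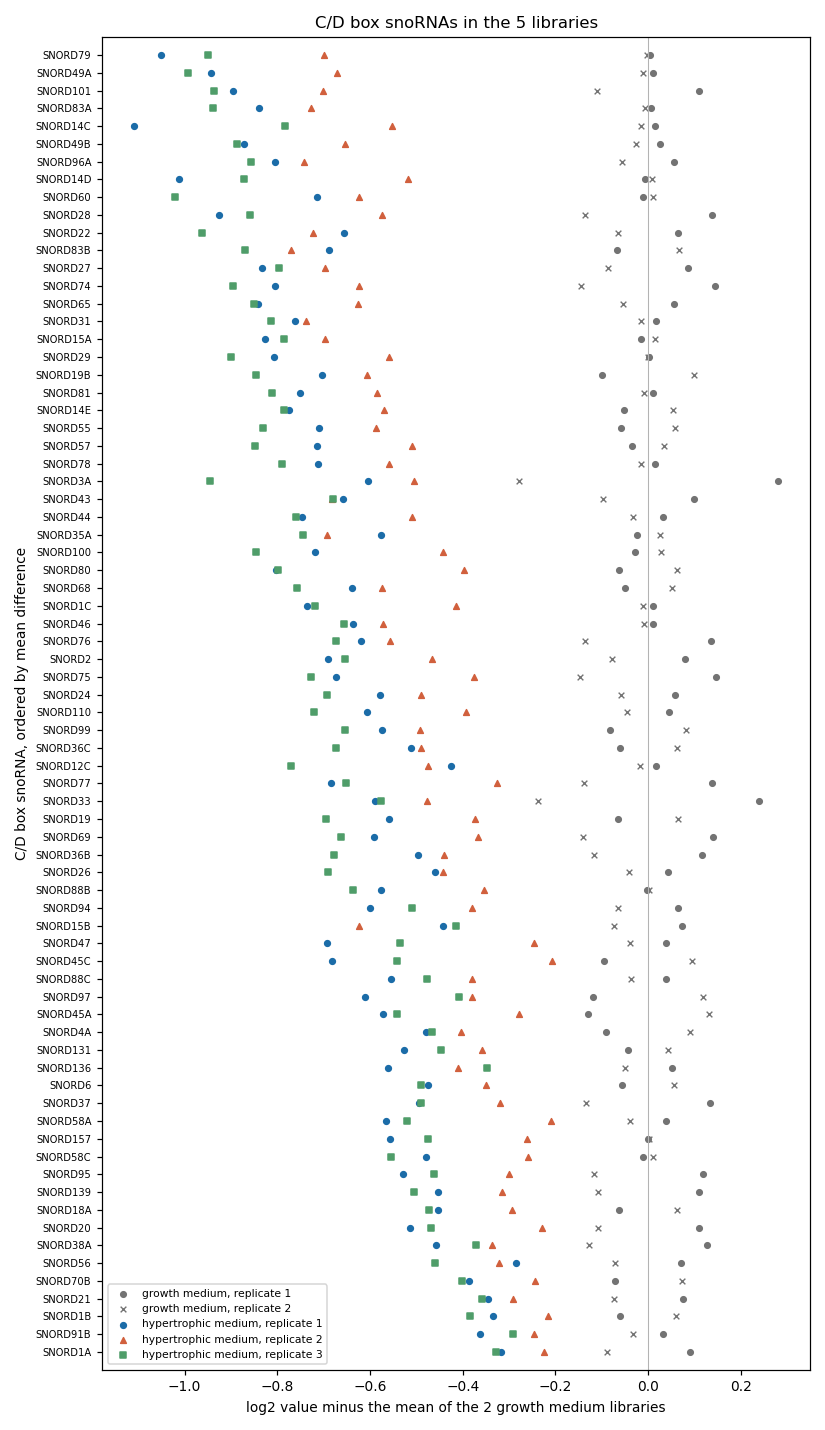
Each row is 1 of the 74 C/D box snoRNAs, and the horizontal axis gives the log2 value in each library minus the mean of the 2 growth medium libraries (grey). The coloured points of the 3 hypertrophic medium libraries lie left of both grey points in every row, and replicate 2 (triangles) is most often the nearest to them.

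Values are given in the order of growth medium replicates 1 and 2 against hypertrophic medium replicates 1, 2 and 3. SNORD79, encoded in GAS5, had the largest decrease in the values as deposited. Its log2 values were 7.26 and 7.25 in growth medium and 6.20, 6.56 and 6.31 in hypertrophic medium, a difference of -0.90 (SE 0.16, limma adjusted p = 0.000953). The rank did not hold in every refit. With quantile normalisation SNORD49A had -1.20 and SNORD79 -1.10. SNORD3A without growth medium replicate 2 and SNORD22 without hypertrophic medium replicate 1 also fell more than SNORD79. SNORD49A, from SNHG29, was measured at 8.31 and 8.29 against 7.36, 7.63 and 7.31, so it fell by 0.87 (SE 0.16, adjusted p = 0.00114). In both of these RNAs the growth medium libraries were nearly equal, and among the hypertrophic medium libraries replicate 2 came closest to them. SNORD101 from RPS12, whose values were 6.57 and 6.35 in growth medium and 5.56, 5.76 and 5.52 in hypertrophic medium, fell by 0.84 (SE 0.15, adjusted p = 0.000867). The values of SNORD83A from RPL3, 6.88 and 6.87 against 6.03, 6.14 and 5.93, gave a difference of -0.84 (SE 0.14, adjusted p = 0.000826). SNORD14C from HSPA8 went from 6.97 and 6.94 to 5.85, 6.40 and 6.17, a difference of -0.81 with a wider SE of 0.18 (adjusted p = 0.00254). The wide error of SNORD14C came with the spread of its hypertrophic medium libraries, of which replicate 1 was the lowest and replicate 2 the highest.

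The 5 smallest decreases were those of SNORD1A (-0.29), SNORD91B (-0.30), SNORD1B (-0.31), SNORD21 (-0.33) and SNORD70B (-0.34). SNORD1A had 4.03 and 3.85 in growth medium and 3.62, 3.71 and 3.61 in hypertrophic medium (SE 0.09, limma adjusted p = 0.00967). For SNORD91B, from TSR1, a ribosome assembly gene, the values were 3.73 and 3.66 against 3.33, 3.45 and 3.40 (SE 0.07, adjusted p = 0.00381). SNORD1B stood at 3.39 and 3.51 against 3.12, 3.24 and 3.07 (SE 0.08, adjusted p = 0.00401). All 3 lay near the lower end of the listed values. SNORD21, from RPL5, gave 4.25 and 4.10 against 3.83, 3.89 and 3.82 (SE 0.09, adjusted p = 0.00516), and SNORD70B, from the core protein gene NOP58, 4.28 and 4.43 against 3.97, 4.11 and 3.95 (SE 0.10, adjusted p = 0.00711). In these RNAs the media did not overlap, but the distance between the lowest growth medium and the highest hypertrophic medium library was small. It was smallest over all members for SNORD45C, at 0.113, and SNORD20, at 0.121.

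SNORD3A encodes U3, which acts in precursor cleavage, and was the one listed member outside a host gene. Its log2 values were 18.48 and 17.92 in growth medium and 17.59, 17.70 and 17.25 in hypertrophic medium, a difference of -0.69 (SE 0.20, limma adjusted p = 0.00895). Growth medium replicate 1 stood well above replicate 2, while the gap between growth medium replicate 2 and the highest hypertrophic medium library was 0.23. Without growth medium replicate 1 the difference was -0.41 and the adjusted p 0.145. Per 100 bases of RefSeq length its mean log2 level in growth medium was 17.08, against 9.10 for SNORD12C, the next highest member, and 3.67 for SNORD1B, the lowest. This scaling used 217 bases for SNORD3A, where GENCODE has 699, and took the deposited values as plain log2, which is not known. How evenly the libraries kept RNAs of different length is not known either. RefSeq holds 13 genes with the number 3, the U3 genes and their copies. Their sequences were not compared here, and how the authors' counting shared reads among them is not known, so the value of SNORD3A is uncertain.

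Many members lie in a host gene together with others, so they are not independent of each other. For the 29 members not located in GENCODE, among them those in SNHG1 and SNHG29, the host rests on RefSeq position, without a check of strand. Of the 34 hosts, 17 held at least 2 listed members and together 56 of them. GAS5, a noncoding RNA gene known for snoRNAs in its introns and for its growth-arrest-linked transcript, had all 10 of its RefSeq C/D box snoRNAs in the list (SNORD44, SNORD47 and SNORD74 to SNORD81), with differences from -0.90 to -0.49 and a median of -0.67. GAS5 itself had 12.98 and 13.01 in growth medium and 12.28, 12.09 and 12.18 in hypertrophic medium and fell by 0.81 (SE 0.11, limma adjusted p = 0.000333). Of its 10 snoRNAs, 1 fell more than the host, namely SNORD79. SNORD47 fell least, with 6.34 and 6.26 against 5.61, 6.06 and 5.77, a difference of -0.49 (SE 0.16, adjusted p = 0.0151).

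SNHG1, another noncoding host, had 6 of its 8 C/D box snoRNAs in the list (SNORD22, SNORD26 to SNORD29 and SNORD31), and SNORD25 and SNORD30 were not listed. SNORD22, SNORD27, SNORD28, SNORD29 and SNORD31 lay close together between -0.79 and -0.76, and SNORD26 stood apart at -0.53. SNORD28 had 7.10 and 6.83 against 6.04, 6.39 and 6.10, a difference of -0.79 (SE 0.17, limma adjusted p = 0.00216), and SNORD26 had 7.61 and 7.53 against 7.11, 7.13 and 6.88 (SE 0.16, adjusted p = 0.00953). The host fell from 13.17 and 13.14 to 12.39, 12.49 and 12.31, a difference of -0.76 (SE 0.11, adjusted p = 0.000433), less than 4 of its snoRNAs. SNHG29 with SNORD49A, SNORD49B and SNORD65 (median -0.80) and the chaperone gene HSPA8 with SNORD14C, SNORD14D and SNORD14E (median -0.80) were also complete, although neither host was itself listed. SNHG16 was complete as well, and its members ranged widely, with -0.62 for SNORD1C, near the host at -0.61, -0.31 for SNORD1B and -0.29 for SNORD1A. SNORD1C had 5.87 and 5.85 in growth medium and 5.13, 5.45 and 5.14 in hypertrophic medium (SE 0.14, adjusted p = 0.0026). Its mean in growth medium was 5.86, whereas SNORD1A and SNORD1B stood lower, at 3.94 and 3.45.

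Of the 34 hosts, 8 were listed as genes of their own: GAS5, GNL3, RABGGTB, SNHG1, SNHG12, SNHG16, SNHG19 and TAF1D. All 8 fell, with differences from -0.81 to -0.61. Beside them, 99.0% of all listed genes passed the threshold in either direction and 36.6% had a lower mean. These 8 hosts held 28 members with a median of -0.62, and the 45 members of hosts not listed had a median of -0.56. The median of the members' mean log2 values over the 5 libraries was 6.08 and 5.89 in the same order. GNL3, which encodes a nucleolar GTP-binding protein, fell by 0.76 (SE 0.11, limma adjusted p = 0.000473), and each of its 4 listed members fell less, from -0.72 for SNORD19B to -0.44 for SNORD136. RABGGTB, which encodes a subunit of the enzyme that attaches lipid groups to Rab proteins, fell by 0.72 (SE 0.11, adjusted p = 0.000439), from 12.92 and 12.96 to 12.19, 12.21 and 12.26. Its members SNORD45A, at 5.83 and 6.09 against 5.39, 5.69 and 5.42, and SNORD45C, at 5.46 and 5.65 against 4.87, 5.35 and 5.01, fell by 0.46 and 0.48. Both snoRNAs fell by less than their host, but the differences between snoRNA and host were not tested. TAF1D, which encodes a subunit of the RNA polymerase I initiation factor, fell by 0.68, and its SNORD6 by 0.44. For SNHG19 the order was the other way, with -0.66 for the host and -0.79 for SNORD60. Reads from a mature snoRNA and from the unspliced host RNA around it cannot be told apart in these values.

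**Figure D2:**
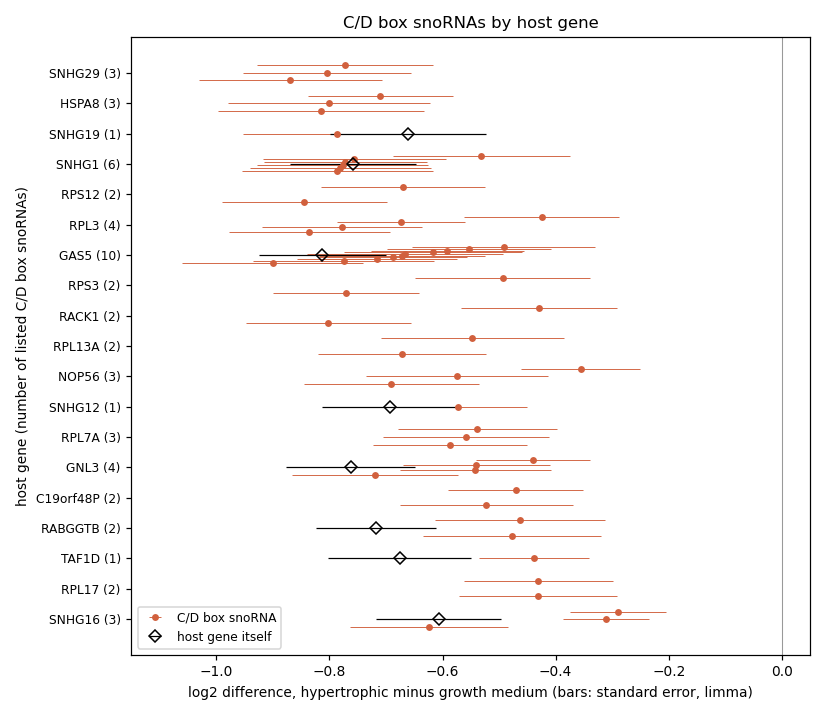
Each point is the log2 difference of a C/D box snoRNA, with the limma standard error as bar, placed by host gene for hosts with 2 or more members or with a value of their own, except 1 host that is not shown. Open diamonds show the host itself where it is listed, between -0.81 (GAS5) and -0.61 (SNHG16), and the number of members stands in brackets.

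By kind of host, the 25 members of 7 noncoding hosts had a median difference of -0.69, the 23 members of 12 ribosomal protein genes -0.56, the 23 members of 14 other protein-coding genes -0.48, and the 2 members of the pseudogene C19orf48P -0.50. None of the 12 ribosomal protein genes was itself listed, against 5 of the 7 noncoding and 3 of the 14 other hosts. Within ribosomal protein genes, RPL3 had all 4 of its members listed, from -0.84 for SNORD83A through -0.78 for SNORD83B and -0.67 for SNORD43 to -0.42 for SNORD139. SNORD43 had 5.55 and 5.35 against 4.79, 4.77 and 4.77 (SE 0.11, limma adjusted p = 0.000783), the narrowest spread in hypertrophic medium of these 4. In RPS12, SNORD101 and SNORD100 had differences of -0.84 and -0.67.

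Some members share a number, and 10 numbers with 2 or 3 listed members covered 22 of the 74. SNORD49A and SNORD49B had differences of -0.87 and -0.80, SNORD83A and SNORD83B of -0.84 and -0.78, and SNORD14C, SNORD14D and SNORD14E of -0.81, -0.80 and -0.71. Smaller decreases that lay close together were those of SNORD58A and SNORD58C, each at -0.43, SNORD45A and SNORD45C at -0.46 and -0.48, and SNORD88B and SNORD88C at -0.52 and -0.47. The smallest median decrease, -0.31, was that of SNORD1A, SNORD1B and SNORD1C, which ranged widely. SNORD15A and SNORD15B, both in RPS3 and sharing the stretch GAGGCATTTG for 28S, lay further apart. SNORD15A had 6.34 and 6.37 in growth medium and 5.53, 5.66 and 5.57 in hypertrophic medium, a difference of -0.77 (SE 0.13, limma adjusted p = 0.000768). SNORD15B, of nearly the same length, was higher in level, at 7.57 and 7.42 against 7.05, 6.87 and 7.08, and fell by 0.49 (SE 0.15, adjusted p = 0.0125). Identity over aligned positions could be computed for 6 of the 10 numbers. It ran from 60.0% for SNORD36B and SNORD36C, whose stretches pair with 18S and 28S, through 67.5% for SNORD15A and SNORD15B and 78.4% for SNORD83A and SNORD83B to 87.9% for SNORD88B and SNORD88C. Where copies are close, reads shared between them make their single values uncertain. By ribosomal RNA paired, the median difference was -0.57 for the 11 members with an 18S stretch. It was -0.52 for the 17 with a 28S stretch, and -0.80 for SNORD96A with 5.8S. The median of the mean log2 values over the 5 libraries was 5.69, 5.66 and 6.93 in the same order.

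The size of the decrease moved with the mean log2 value. Across the 74 members, the Spearman correlation of the mean log2 value with the difference was -0.68 and Pearson's r -0.48 (n = 74 genes in the same 5 libraries). Without SNORD3A both were -0.69. In the 913 other genes with a lower mean the Spearman value was -0.45. Split by this mean, the median difference was -0.41 in the 14 members under 5, -0.50 in 25 between 5 and 6, -0.72 in 21 between 6 and 7, and -0.68 in 14 above 7. The other lower genes in the same ranges had medians of -0.40, -0.54, -0.71 and -0.78, close to the members in the lower 3 ranges. The highest range is not like for like, because the median of the mean log2 values in it was 7.38 for the members and 10.29 for the other lower genes. The smallest decrease of any other lower gene also grew with the mean, from -0.21 under a mean of 5 through -0.36 and -0.42 to -0.49 above 7. The differences of members with low and high values are therefore not on an equal footing, and those of hosts and their snoRNAs are not either, since every listed host had higher log2 values, not scaled to length, than any member but SNORD3A.

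**Figure D3:**
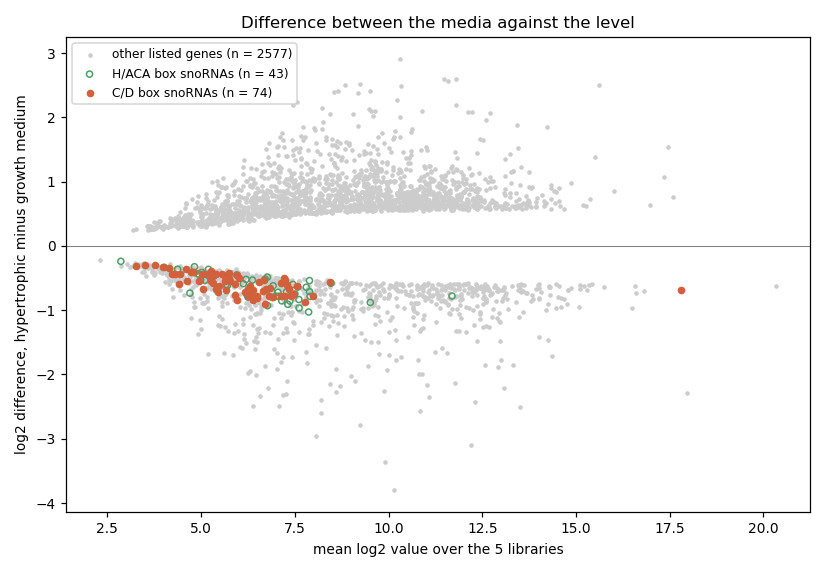
The log2 difference (hypertrophic minus growth medium) of each of the 2694 listed genes is plotted against its mean log2 value over the 5 libraries. The 74 C/D box snoRNAs (filled) lie below 0 and none reaches -1, with SNORD3A alone at the right, and the 43 H/ACA box snoRNAs (open) also lie below 0, 1 of them beyond -1.

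Hypertrophic medium replicate 2 stood apart in the C/D box snoRNAs. The median over the 74 members was 6.34 and 6.29 in the libraries from growth medium, whereas hypertrophic medium replicates 1, 2 and 3 had 5.59, 5.76 and 5.56. Replicate 2 was the highest hypertrophic medium library in 66 of 74 members (89.2%), against 350 of the 913 other genes with a lower mean (38.3%), and replicate 3 the lowest in 45. The median deviation of replicate 2 from a member's own hypertrophic medium mean was 0.12, and that of the other lower genes 0.01. In GAS5 it was the highest library for all 10 snoRNAs, whereas GAS5 itself was lowest there, and over the 8 listed hosts it was the highest in 3. Among the H/ACA box snoRNAs it was the highest in 35 of 43. Without replicate 2 all 74 members still fell at an adjusted p under 0.05, with a median of -0.65, and 94.1% of all listed genes passed in either direction. What set this library apart was not tested.

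**Figure D4:**
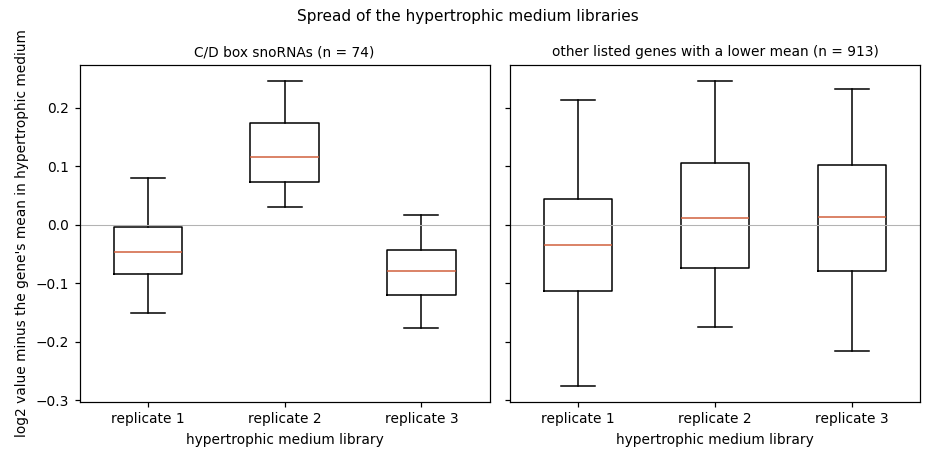
Boxes give, for each hypertrophic medium library, the log2 value minus the gene's mean over the 3 hypertrophic medium libraries (line, median; box, quartiles; whiskers, 5th to 95th percentile). Replicate 2 lies above 0 for the 74 C/D box snoRNAs, with a median of 0.12, and near 0 for the 913 other genes with a lower mean.

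Genes of the snoRNA machinery were counted from fixed lists, with no share of all genes to set the number listed against. None of the 4 core proteins (FBL, NOP56, NOP58 and SNU13) was listed. Of 24 assembly and maturation factors 2 were listed, the RNA helicase DDX21 and the nucleolar chaperone NPM1, and of 30 proteins of the U3-containing processome that trims the ribosomal RNA precursor 2 were listed, WDR3 and WDR43. All 4 fell. DDX21 had 14.99 and 15.00 in growth medium and 14.19, 14.12 and 14.28 in hypertrophic medium, a difference of -0.80 (SE 0.11, limma adjusted p = 0.000336), and NPM1 had 17.00 and 17.08 against 16.37, 16.12 and 16.44, a difference of -0.73 (SE 0.14, adjusted p = 0.00123). WDR3 fell by 0.68 and WDR43 by 0.69. A gene that is not listed may have missed the authors' thresholds or filters, and its level is not known here. Among markers of the labelled cell type, of 10 chondrocyte genes SOX9, COL2A1 and ACAN were listed and rose by 0.65, 1.53 and 1.14, of 4 hypertrophic chondrocyte genes MMP13 was listed and rose by 0.70, and of 5 markers of other cells KRT18 was listed and fell by 0.81. The 43 listed H/ACA box snoRNAs, which guide pseudouridylation, also all fell, with a median of -0.64, and so did the 6 listed small Cajal body RNAs, with a median of -0.69.

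The scale of the comparison rests on the authors' normalisation. When each library was centred on its median over the listed genes, the differences of all genes shifted by -0.35, all 74 members still fell, beside 68.0% of all listed genes called in either direction, their median became -0.93, and the share of lower among all called genes went from 36.9% to 53.9%. With quantile normalisation, which shifted all genes by -0.21, all 74 kept a negative difference and 72 passed the threshold, beside 82.4% of all listed genes. The exceptions were SNORD1B and SNORD3A, and SNORD1B then had the smallest decrease of all members, at -0.15. The share of lower calls was 43.4%. Without growth medium replicate 1, 54 members passed the threshold, beside 85.1% of all listed genes, and without growth medium replicate 2, 67 members did, beside 83.9%. Counting members that passed in every one of the 10 refits that included them gave 48 of 74. The same share of all listed genes was not computed, so the 48 has no background beside it. Of the members given library by library above, SNORD1A, SNORD3A, SNORD15B, SNORD26 and SNORD47 no longer passed without growth medium replicate 1 (limma adjusted p = 0.0749, 0.145, 0.117, 0.0777 and 0.0697), and SNORD45A and SNORD45C without replicate 2 (0.119 and 0.079).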

How the data were processed

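Total RNA libraries (TruSeq Stranded Total RNA, Gold) were sequenced on a NovaSeq. According to the study's methods, alignment was to hg19 by HISAT2 (2.1.0) and counting on NCBI genes by StringTie (2.1). The study's wording on its filter is unclear and was read here as dropping genes that had no read in some library. The authors deposited log2-transformed, RLE-normalised values, 1 file per library. The submitters' processing notes name other tools instead (bcl2fastq 2.20.0.422, cutadapt 1.18, TopHat2 2.0.13 and Cuffdiff 2.2.1) and the rat build rn5. The conflict was not resolved. The symbols in the files are human. Whether counting used strand, and how the log2 values were computed, is not given in the sources used here.

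Hypertrophic was set against growth medium by lmFit and eBayes with a trend (limma 3.58.1, R 4.3.3) on the deposited log2 values of all 2694 genes, without a pseudocount or low-value filter, with Benjamini-Hochberg adjustment at 0.05. The fit was tested on simulated data. Single values were also tested by a two-sided exact permutation test over the 5 libraries. Depth is unknown, so no counting interval is given. The study's DESeq2 test needs counts and was not repeated. The members and lists were chosen with earlier results of these data known, so no test was made over them.

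Named were the 5 largest and 5 smallest differences, members outside a host, copies sharing a number, and members and listed genes of hosts with several members, the rest by range. Hosts, lengths and families came from RefSeq (GRCh38.p14), loci and sequences from GENCODE 44 on GRCh37. Alternatives were the replicate number as a block, median centring, quantile normalisation, no trend, a mean log2 filter of 6, a stricter p, a size threshold, and each library left out. A host gene is not reported by name here.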

Additional observations from a re-analysis of the deposited data

How the results depend on the processing

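No member reversed its direction under any alternative. All 74 were called with eBayes without a trend (97.5% of all listed genes called), with median centring (68.0% called, median difference of the members -0.93) and without hypertrophic medium replicate 1 (95.9% called) or 2 (94.1% called). At an adjusted p under 0.01, 61 were called (81.7% of all). A mean log2 filter of 6 left 35 members, and all 35 were called, beside 99.1% of the genes it left. Requiring a difference beyond 1 left 0 members, 0 of the 4 assembly and processome genes and 0 of the 8 listed hosts. Of the 2694 listed genes, 510 went beyond 1 in either direction, 190 of them as lower. Leaving out 1 library at a time gave 54 to 74 called members and medians from -0.65 to -0.53. Without growth medium replicate 1, 20 members lost their call and 85.1% of all listed genes were called, without replicate 2, 7 did and 83.9% were, and without hypertrophic medium replicate 3, SNORD45C did (adjusted p = 0.0517 in limma, 97.3% of all listed genes called). In those fits a single growth medium library is assumed to vary like the hypertrophic medium libraries.

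Replicates 1 and 2 carry the same numbers in both media, but nothing states that a number marks a shared culture or day. The correlation of replicate 1 minus replicate 2 between the media was -0.03 over all listed genes and 0.06 over the members, so the numbers were not taken as pairs. With the replicate block, 74 members and 98.9% of all listed genes were called, and no member's call changed. The members had a median of -0.53 and a highest adjusted p of 0.035 (limma). Replicate 3 exists only in hypertrophic medium, so the block took it up wholly and the differences rested on replicates 1 and 2. The median is therefore the same as without hypertrophic medium replicate 3, and the block is not a separate check of the size. The depth behind the values is unknown and limits what can be said of low members such as SNORD1B.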
